A study of Mus musculus with 2 samples.

Results

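Proteasome subunit genes, with the chaperones that assemble the particle and the proteins that cap or block it, were described in a pair of mouse pancreatic islet libraries. The members were every listed gene whose symbol starts with Psm, a letter from a to g and a digit, without pseudogene symbols and without the immunoproteasome genes Psmb8, Psmb9 and Psmb10. The rule found 50 of the 23652 listed genes, namely 47 gene symbols and 3 further entries of the same genes on other sequences of the assembly. Of the 50, 41 had a mean FPKM (reads scaled to gene length and library total) of at least 1 and are called measured. The control library came from SRSF2 flox/flox mice aged 7 months, and the other from SRSF2 flox/flox Ins2-Cre mice of the same age. All animals thus carried the floxed gene of the splicing factor Srsf2, and those with Cre recombinase had it under an insulin promoter, which is active in beta cells, whereas the RNA came from whole islets. Each genotype had 1 library, and how many mice gave each is not given in the sources used here. Values below therefore compare a pair of libraries without replicates, and no test of genotype was possible.

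The proteasome is the main protease of the cytosol and nucleus. Its 20S core is a barrel of stacked rings, in which alpha subunits gate the entrance and beta subunits hold the active sites, and the 19S particle on its ends recognises ubiquitin chains, unfolds the substrate with a ring of ATPases and feeds it inward. Subunits are made in balanced amounts and joined with the help of dedicated chaperones, and when the protease is blocked the transcription factor NRF1, encoded by Nfe2l1, raises their genes together. Beta cells make large amounts of proinsulin, and misfolded proinsulin is sent from the endoplasmic reticulum to the proteasome.

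Promoter windows from RefSeq (GRCm38.p6, from 250 bases before the transcription start to 50 after) were matched by symbol for 39 of the 47 gene symbols, in 42 windows. Psma8, Psmb1, Psmb2, Psmb7, Psmc3, Psmd3, Psmd7 and Psmg2 had none. The antioxidant response element bound by NRF1 and NRF2 was searched by its core TGACNNNGC on both strands. It was in 6 of the 42 windows (14.3%), those of Psmb5, Psmb6, Psmc6, Psmd12, Psmd9 and Psme4, against 12.4% of all 32851 windows and 14.6% of the 10941 windows of measured genes, so the members held these letters about as often as other genes. The windows of the 4 measured members of highest level among these are shown 5′ to 3′ on the gene's strand because NRF1 and the protease that activates it are described further on. They lie at chr11:107479278-107479577 for Psmd12, chr14:45329574-45329873 for Psmc6, and chr5:123227940-123228239 for Psmd9, all on the plus strand, and at chr14:54617946-54618245 on the minus strand for Psmb5. Capitals mark the match, or its reverse complement. With the start base as position 0, the match ended at -39 in Psmb5 and -23 in Psmd9, near the start, but at -239 in Psmd12 and -219 in Psmc6.
Psmb5: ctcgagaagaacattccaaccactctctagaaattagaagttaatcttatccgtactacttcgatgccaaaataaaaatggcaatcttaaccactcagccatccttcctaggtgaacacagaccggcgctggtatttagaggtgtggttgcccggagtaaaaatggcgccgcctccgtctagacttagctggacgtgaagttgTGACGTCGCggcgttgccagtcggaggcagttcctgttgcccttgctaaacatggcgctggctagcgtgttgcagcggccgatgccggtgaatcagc
Psmd9: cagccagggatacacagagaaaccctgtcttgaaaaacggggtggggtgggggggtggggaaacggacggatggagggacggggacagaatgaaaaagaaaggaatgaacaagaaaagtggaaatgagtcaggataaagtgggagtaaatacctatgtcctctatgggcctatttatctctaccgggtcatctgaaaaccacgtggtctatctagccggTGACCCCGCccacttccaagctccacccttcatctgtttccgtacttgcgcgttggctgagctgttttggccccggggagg
Psmd12: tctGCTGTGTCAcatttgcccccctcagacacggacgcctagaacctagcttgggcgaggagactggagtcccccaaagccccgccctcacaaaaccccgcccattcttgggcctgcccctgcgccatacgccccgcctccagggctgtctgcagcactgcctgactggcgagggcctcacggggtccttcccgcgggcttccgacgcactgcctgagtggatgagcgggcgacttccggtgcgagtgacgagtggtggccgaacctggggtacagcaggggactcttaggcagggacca
Psmc6: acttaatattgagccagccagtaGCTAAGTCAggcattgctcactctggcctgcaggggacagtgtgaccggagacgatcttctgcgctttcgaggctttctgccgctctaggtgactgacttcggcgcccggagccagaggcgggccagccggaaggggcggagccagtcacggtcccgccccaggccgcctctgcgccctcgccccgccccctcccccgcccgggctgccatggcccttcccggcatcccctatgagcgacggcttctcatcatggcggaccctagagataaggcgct

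Other short motifs were searched in the same way, on both strands, and chosen after values were seen. The core CGGAAG, bound by factors of the ETS family, was in 24 of the 42 member windows (57.1%), against 16.9% of all windows and 31.3% of those of measured genes. GGGCGG, the GC box, was in 23 (54.8%, against 63.5% of windows of measured genes), CCAAT in 14 (33.3% against 37.3%) and TATAAA in 3 (7.14% against 7.08%). No test was made of these shares, and a match is not a binding site. The windows of Psmd13 (chr7:140882144-140882443, plus strand) and Psmd8 (chr7:29180624-29180923, minus strand) are shown with CGGAAG or its reverse complement in capitals, because these lid subunits had the lowest and the highest difference of the 19S particle. Psmd8 held 1 copy, which ended at position -11, and Psmd13 held 3, of which 1 ended on the start base.
Psmd13: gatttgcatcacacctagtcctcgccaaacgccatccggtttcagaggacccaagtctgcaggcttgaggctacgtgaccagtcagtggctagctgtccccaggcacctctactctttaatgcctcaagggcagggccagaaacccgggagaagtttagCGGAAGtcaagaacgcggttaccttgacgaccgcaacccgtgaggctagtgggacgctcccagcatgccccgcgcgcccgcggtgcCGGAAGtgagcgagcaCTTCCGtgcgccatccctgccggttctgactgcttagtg
Psmd8: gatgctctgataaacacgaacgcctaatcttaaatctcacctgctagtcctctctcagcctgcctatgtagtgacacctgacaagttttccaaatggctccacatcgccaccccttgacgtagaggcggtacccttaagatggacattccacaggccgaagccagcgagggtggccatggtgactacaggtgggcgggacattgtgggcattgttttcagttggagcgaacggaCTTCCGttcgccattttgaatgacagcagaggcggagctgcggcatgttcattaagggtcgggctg

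The control library held 17412828 reads on listed genes and the Ins2-Cre library 15098659. Differences are log2(FPKM + 0.5) in the Ins2-Cre library minus that in the control, ratios are FPKM in the Ins2-Cre library over FPKM in the control, each with a 95% interval (exact, Clopper-Pearson on the split of a gene's reads between libraries) for counting error only. Over the 10666 measured genes the median difference came to -0.36, and a relative difference is a difference minus this median. The insulin genes and 5 other beta cell markers took 22.8% and 21.2% of reads in control and Ins2-Cre, so the label of islet tissue was borne out by its markers. The median difference of the 7 markers was -0.50, with 1 past 2-fold lower. Acinar markers were far apart, with 22 of 23 measured genes at least 2-fold higher in the Ins2-Cre library, 1.73% and 15.5% of reads, a summed level of 15813 and 142281 FPKM, and Prss1 at 0 reads in the control. Lymphocyte markers were past 2-fold higher in 3 of 4 measured (summed level 24.5 and 64.2 FPKM), and of 8 macrophage markers 2 were (124 and 151 FPKM). The part of these cells in the values below was not tested, and in bulk RNA fewer cells of a type and less RNA per cell cannot be told apart. Srsf2, the floxed gene, had 2296 and 1209 reads, a ratio of 0.607 (counting interval 0.566 to 0.651). Its relative difference was -0.34, with 20.2% of measured genes lower still, and against genes of like length it stood at -0.31.

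Differences of the proteasome genes lay within 2-fold. None of the 41 measured members was at least 2-fold apart in either direction (0 lower and 0 higher), where 6.32% of all measured genes were lower by that much and 1.57% were higher. At 1.5-fold, 4 members were lower, against 29.6% of all genes, and 0 higher, against 3.69%. These were Psmd13 and Psmd2 of the 19S particle and the activators Psme3 and Psme4. With so few members, a count of 0 past 2-fold is near those shares. The member median was -0.14, from -0.96 for Psme4 to 0.44 for Psmg4, beside -0.36 for all measured genes.

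How the members lean depends on what they are set against. As deposited, 33 of the 41 measured members had a difference below 0, against 78.9% of all genes, and 8 were above 0, against 21.1%. Relative to the median of all genes, 33 of 41 were above 0 (50.0% of all genes by construction), with a member median of 0.22, and 0 were past 2-fold (1.36% of all genes lower and 3.22% higher). On that scale Psme4 was past 1.5-fold lower (1 of 41, against 8.10% of all genes), and Psmd8, Psme1 and Psmg4 were past 1.5-fold higher (3 of 41, against 11.3%). With the running median of genes of like length subtracted, 31 of 41 were below 0 (49.9% of all genes) and the member median was -0.15. All members together took 53989 reads in the control and 39904 in the Ins2-Cre library, 0.310% (exact binomial 95% interval 0.307% to 0.313%) and 0.264% (0.262% to 0.267%) of reads. These are shares of all reads, of which the acinar list took 1.73% in the control and 15.5% in the Ins2-Cre library. With the library totals taken without that list, the member median was 0.07, beside -0.17 for all measured genes, and 23 of 41 members were above 0.

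**Figure D1:**
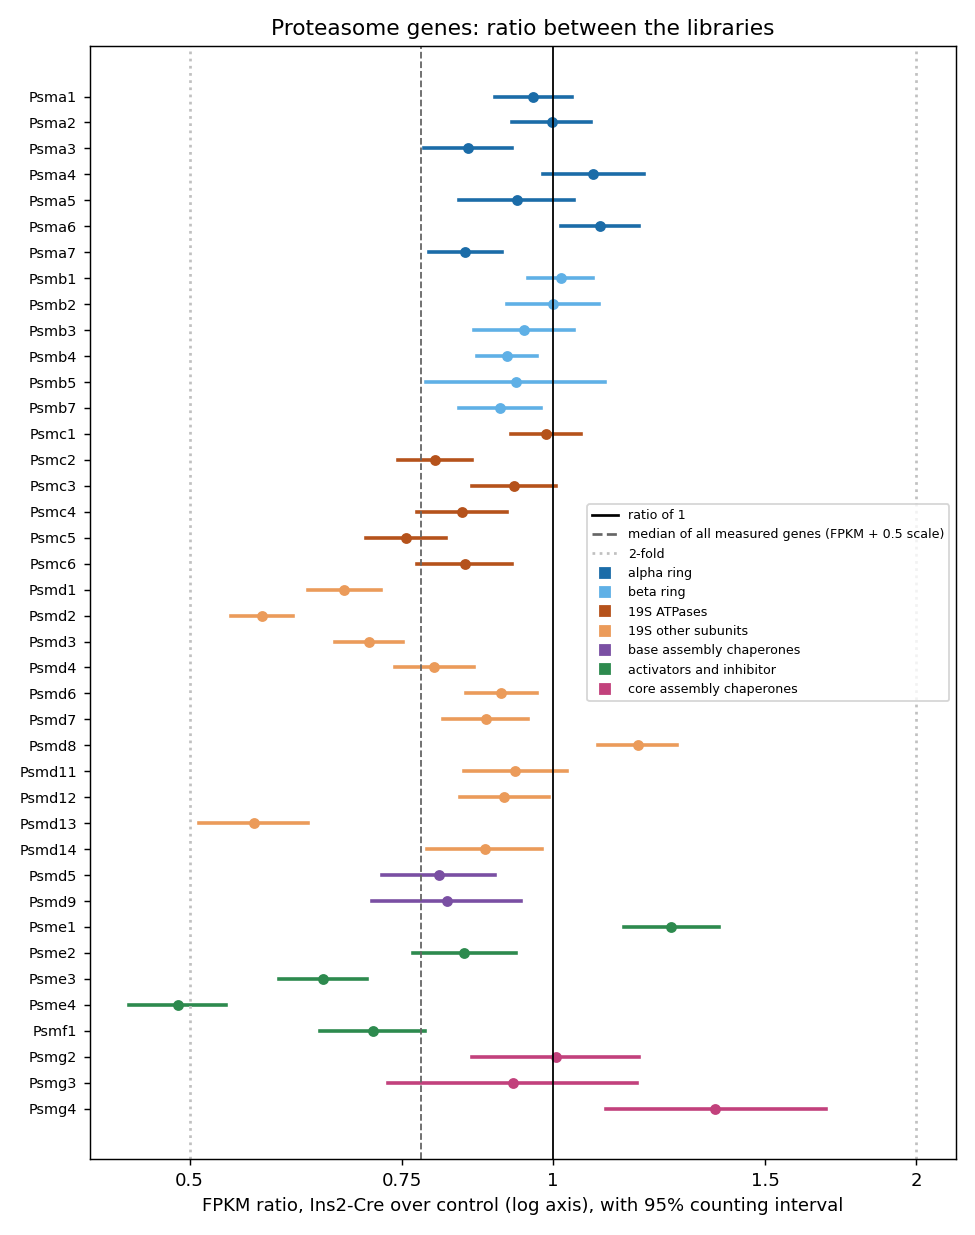
FPKM ratio of Ins2-Cre over control (log axis) for the 40 measured members of the named subcomplexes, with 95% counting intervals, colours giving the subcomplex, the dashed line the median of all measured genes and dotted lines 2-fold. Alpha and beta ring genes sit between 0.846 and 1.09, while Psmd13, Psmd2, Psme3 and Psme4 sit at or below 0.645.

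The alpha ring, the gate of the core, had 7 measured genes, and each stood near its control level as deposited. Psma6 had 1474 reads and 76.7 FPKM in the control and 1398 reads and 83.9 FPKM in the Ins2-Cre library, a ratio of 1.09 (1.02 to 1.18), the highest of the ring. Psma7 had 1911 and 1402 reads, or 69.0 and 58.4 FPKM, a ratio of 0.846 (0.789 to 0.907), the lowest. Psma2 held the highest level, 91.7 and 91.5 FPKM on 1511 and 1307 reads, and Psma3 the lowest, 25.7 and 21.9 FPKM on 1307 and 964 reads. Their ratio of levels per length, Psma2 over Psma3, was 3.56 in the control and 4.18 in the Ins2-Cre library. Psma1 (73.7 and 71.0 FPKM), Psma4 (40.0 and 43.2) and Psma5 (34.4 and 32.2) lay between, so the order of the 7 levels was the same in both libraries. The ring's median difference was -0.05, and its 7 relative differences ran from 0.12 to 0.49. Psma8, the alpha subunit of the testis proteasome, had 1 read in each library.

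Beta ring genes, which include the catalytic subunits, stood as close on that scale. Psmb5, whose product cuts after hydrophobic residues, had 307 and 248 reads, or 20.2 and 18.9 FPKM, a ratio of 0.932 (0.785 to 1.10). Psmb7, whose product cuts after basic residues, had 1481 and 1161 reads, or 80.5 and 72.7 FPKM, a ratio of 0.904 (0.837 to 0.977). Both catalytic genes were thus slightly under their control level as deposited and above it relative to all genes (0.26 and 0.22). Among the non-catalytic genes, Psmb4 had the highest level of any member, 160 and 146 FPKM on 2639 and 2097 reads (ratio 0.916, 0.865 to 0.971). Psmb1 had 124 and 125 FPKM on 2231 and 1963 reads (ratio 1.01, 0.955 to 1.08), Psmb2 74.1 FPKM in both libraries and Psmb3 75.7 and 71.7 FPKM. Although one copy of each goes into a ring, the level per length of Psmb4 was 7.89 times that of Psmb5 in the control and 7.76 times in the Ins2-Cre library. The 6 measured genes had a median difference of -0.09. Relative to all genes 6 of 6 were above 0 (50.0% of all genes), and against genes of like length 6 of 6 were below 0 (49.9% of all genes), with a median of -0.28, so their direction turned with the reference.

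The remaining catalytic subunit gene, Psmb6, whose product cuts after acidic residues, had no usable value. Its entry on chromosome 11 (70525324 to 70527858) was listed at 0 reads in both libraries, and a further entry of it, on another sequence of the assembly, had 15 and 8 reads. Psmg1 and Psmd10 were alike, with 5 and 1 and with 2 and 2 reads on their chromosomes and 0 on their further entries. Counting the immunoproteasome genes too, 5 symbols of the Psm pattern had further entries and 0 of the 5 were measured, while 42 of the 45 such symbols without one were. Over all listed genes, 209 of 1116 genes with a further entry were measured (18.7%), against 10428 of 20932 genes without (49.8%). How reads that fit several entries were counted is not given in the sources used here, so a value near 0 for these genes is not a level. Psmb11, the subunit of the thymus, and Psme2b had 0 reads in both libraries.

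**Figure D2:**
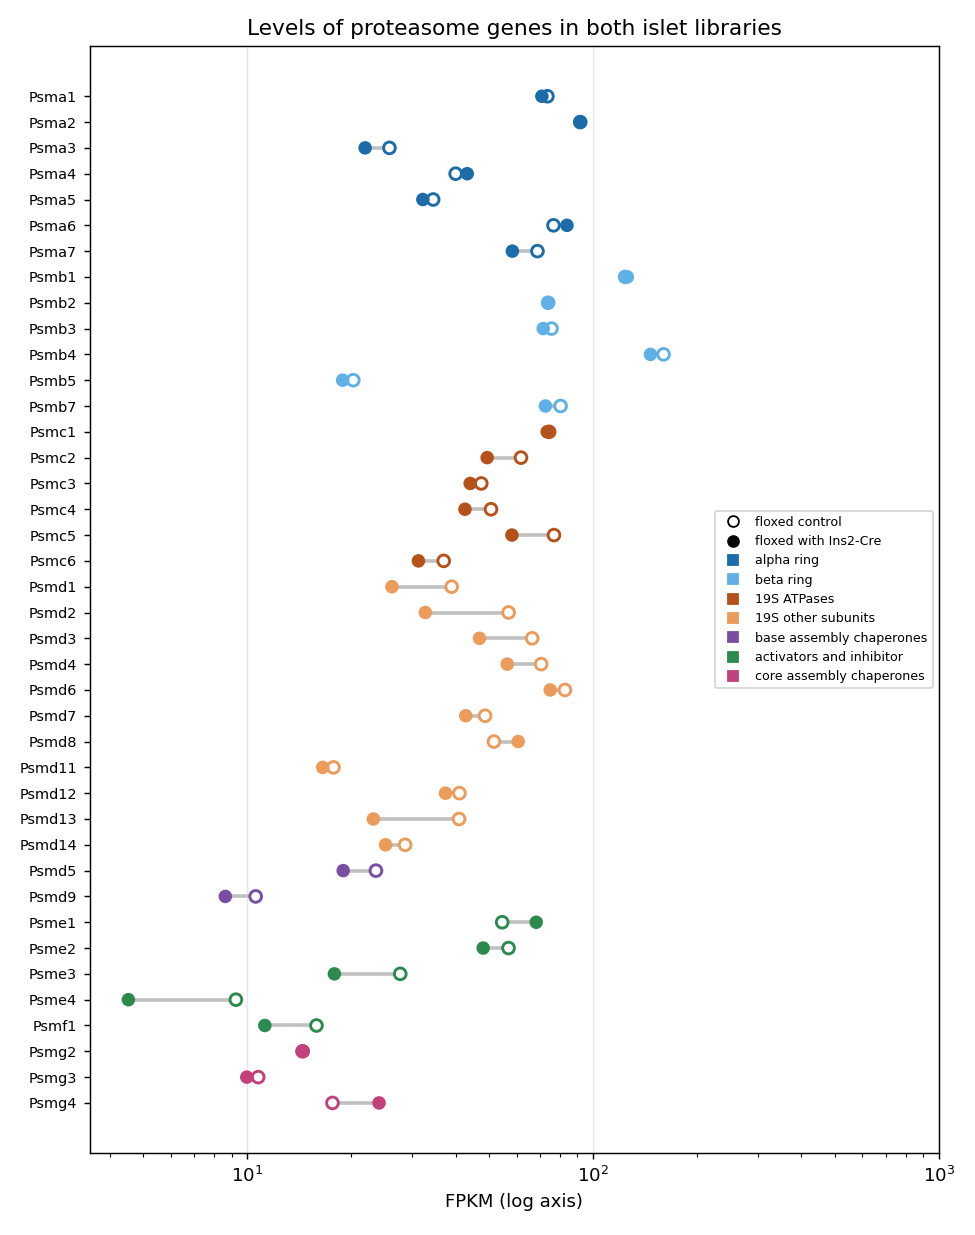
FPKM (log axis) of the 40 measured members of the named subcomplexes, open circles for the floxed control and filled circles for the floxed genotype with Ins2-Cre. Levels within the core span from 20.2 FPKM for Psmb5 to 160 for Psmb4 in the control, a wider range than the distance between the libraries for any member.

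As deposited, the 19S particle was further from its control level than the core. Under every other scaling tried, and with the length trend removed, the core was further from 0. The median of the 19S particle was still the lower under every scaling, and the higher only with the length trend removed. As deposited, the 17 measured 19S genes had a median difference of -0.24, against -0.08 for the 13 measured core genes. Of the 17, 16 were below 0 as deposited (12 of 17 above 0 relative to all genes). Summed reads gave a ratio of 0.805 (lower bound 0.791) for the 19S particle, from 27781 and 19402 reads, and 0.956 (0.936 to 0.977) for the core, from 18147 and 15047. These sums weight long and abundant genes, and 19S genes were longer, with a median of 1600 bases against 1057. Relative to all genes the medians were 0.12 for the 19S particle and 0.28 for the core, and with the length trend subtracted -0.15 and -0.18, so by either reference the core was further from 0.

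Among the 6 ATPases that unfold substrates, Psmc1 was nearest to its control value as deposited, though furthest from the median of all genes (relative difference 0.34), with 1950 and 1669 reads, or 74.6 and 73.6 FPKM, a ratio of 0.987 (0.924 to 1.05). Psmc5 was furthest as deposited, though nearest to the median of all genes (-0.04), with 1712 and 1122 reads, or 77.0 and 58.2 FPKM, a ratio of 0.756 (upper bound 0.815). Products of both sit in the same ring. The counting intervals of these ratios did not overlap, but the genes were picked as the highest and lowest of the 6. These intervals also hold no spread between samples, so nothing is read from this. Psmc2 (61.8 and 49.4 FPKM), Psmc3 (47.5 and 44.1), Psmc4 (50.6 and 42.6) and Psmc6 (37.0 and 31.2) had ratios between 0.798 and 0.929. The median of the 6 was -0.24, or 0.12 relative to all genes and -0.16 against genes of like length. Psmc3ip matched the rule by symbol only, since its product acts in meiotic recombination, and had 53 and 34 reads.

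The other 19S subunits spread further apart than the rings, from -0.81 to 0.23. Psmd13, which encodes a subunit of the lid (Rpn9 in yeast), had 1114 reads and 40.9 FPKM in the control and 546 reads and 23.1 FPKM in the Ins2-Cre library, a ratio of 0.565 (0.509 to 0.627). It is listed on the plus strand of chromosome 7, bases 140882394 to 140898642 (GRCm38), with a length of 1563 bases. Its difference of -0.81 was lower than that of most genes, with 13.9% of measured genes lower still. Against genes of like length it was -0.75, with 2.75% of genes lower, the furthest below of any measured member. Psmd2, the large base subunit that docks ubiquitin receptors, followed with 3387 and 1687 reads, or 56.9 and 32.7 FPKM, a ratio of 0.574 (0.542 to 0.609). It is longer, at 3417 bases, and was at -0.40 against genes of like length.

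The base scaffold gene Psmd1 had 2209 and 1287 reads, or 39.0 and 26.2 FPKM (ratio 0.672, 0.627 to 0.720). Psmd3, a lid gene, had 2490 and 1520 reads, or 66.6 and 46.9 FPKM (ratio 0.704, 0.660 to 0.751). At the other end, Psmd8, another lid gene (Rpn12 in yeast), had 1360 and 1386 reads, or 51.6 and 60.7 FPKM, a ratio of 1.18 (1.09 to 1.27). It was the 1 gene of the 17 above its control level as deposited, at 0.59 relative to all genes and 0.26 against genes of like length. Thus Psmd13 and Psmd8, of nearly equal listed length (1563 and 1513 bases) and in the same lid, differed in opposite directions as deposited. Psmd6 had the highest level of the group, 82.9 and 75.1 FPKM on 1929 and 1516 reads (ratio 0.906, 0.847 to 0.970).

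Psmd14, the deubiquitinase of the lid, had 767 and 584 reads, or 28.6 and 25.1 FPKM (ratio 0.878, 0.787 to 0.979). Its partner Psmd7 had a ratio of 0.879, the ubiquitin receptor gene Psmd4 0.798, Psmd12 0.912 and Psmd11 0.931. As deposited, most of the lid thus lay near the control level: the median over its 8 Psmd genes was -0.16. Over the base genes Psmd1, Psmd2 and Psmd4 it was -0.56. Relative to all genes the medians were 0.20 for the lid and -0.20 for these base genes. Those base genes include the longest of the particle, and with the length trend subtracted the medians were -0.13 and -0.32. Psmd11 had the lowest level of the particle, 17.7 and 16.5 FPKM on 917 and 740 reads.

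The 5 measured assembly chaperones of the Psmg and Psmd families had control levels from 10.6 to 23.5 FPKM, under the 59.4 FPKM at the median of the 30 measured 26S subunits. Of those for the core, Psmg4 had 170 and 201 reads, or 17.6 and 24.0 FPKM, a ratio of 1.36 (1.11 to 1.68) and the highest difference of any measured member. At 554 bases it was also the shortest, and it stood at 0.10 against genes of like length. Its partner Psmg3 had 163 and 131 reads, or 10.7 and 9.96 FPKM (ratio 0.927, 0.731 to 1.17). The counting intervals of these partners overlapped. Psmg2, which pairs with the product of Psmg1, had 335 and 292 reads, or 14.4 and 14.5 FPKM (ratio 1.01, 0.856 to 1.18). Of the chaperones for the ATPase ring, Psmd5 had 839 and 585 reads, or 23.5 and 18.9 FPKM (ratio 0.804, 0.722 to 0.895). Psmd9 had 477 and 338 reads, or 10.6 and 8.64 FPKM (ratio 0.817, 0.709 to 0.941). Both lay near the median of all genes, at 0.06 and 0.09 relative to it.

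The activators that replace the 19S cap, with the inhibitor PI31, ran from -0.96 to 0.32 as deposited, the largest range of any group on that scale. With the length trend subtracted they ran from -0.40 to 0.17, a narrower range than the -0.75 to 0.26 of the other 19S subunits. Psme1 and Psme2 encode the alpha and beta subunits of PA28, an interferon-induced ring that opens the core for peptide production. Psme1 had 928 and 1009 reads, or 54.5 and 68.4 FPKM, a ratio of 1.25 (1.15 to 1.37). Psme2 had 968 and 709 reads, or 56.9 and 48.1 FPKM, a ratio of 0.845 (0.766 to 0.932). These partners, of equal listed length (977 bases) and a few kilobases apart on chromosome 14, lay on opposite sides of their control level as deposited, though both above the median of all genes. The level of Psme1 over Psme2 was 0.959 in the control and 1.42 in the Ins2-Cre library, a comparison within each library that no scaling alters. Macrophage and lymphocyte markers were also higher in the Ins2-Cre library, as given above, and their part in these values was not tested.

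Psme3 encodes PA28 gamma, the nuclear ring, and had 1527 and 854 reads, or 27.7 and 17.8 FPKM, a ratio of 0.645 (0.592 to 0.702). Psme4 encodes PA200, a nuclear cap known for its role in histone breakdown in the testis, and had 1543 and 654 reads, or 9.27 and 4.53 FPKM. Its ratio of 0.489 (0.445 to 0.536) was the lowest of any measured member and just past 2-fold, though with the pseudocount its difference of -0.96 was not. At 9564 bases it was the longest member, and against genes of like length it stood at -0.28. It overlaps Erlec1 on the opposite strand by 18357 bases of gene span (2746 and 2084 reads on Erlec1), and the strand setting of the counting is not given in the sources used here. Psmf1, the inhibitor gene, had 1036 and 637 reads, or 15.8 and 11.2 FPKM (ratio 0.709, 0.641 to 0.783).

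Length ran through the whole set. Across the 41 measured members, listed length and difference had a Spearman rho of -0.66, given as a description over genes of the same libraries, and across all 10666 measured genes it was -0.55. Among members shorter than 1000 bases the median difference was -0.08 over 9 genes, while 579 genes of that length had 0.29. From 1000 to below 1500 bases it was -0.12 over 12 members and 0.03 over 794 genes, and from 1500 to below 2500 bases -0.21 over 12 members and -0.14 over 1961 genes. From 2500 to below 4000 bases 7 members had -0.48 and 2764 genes -0.36, and Psme4, the 1 longer member, had -0.96 beside -0.57 for 4568 genes. In each length class the members' median was the lower.

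**Figure D3:**
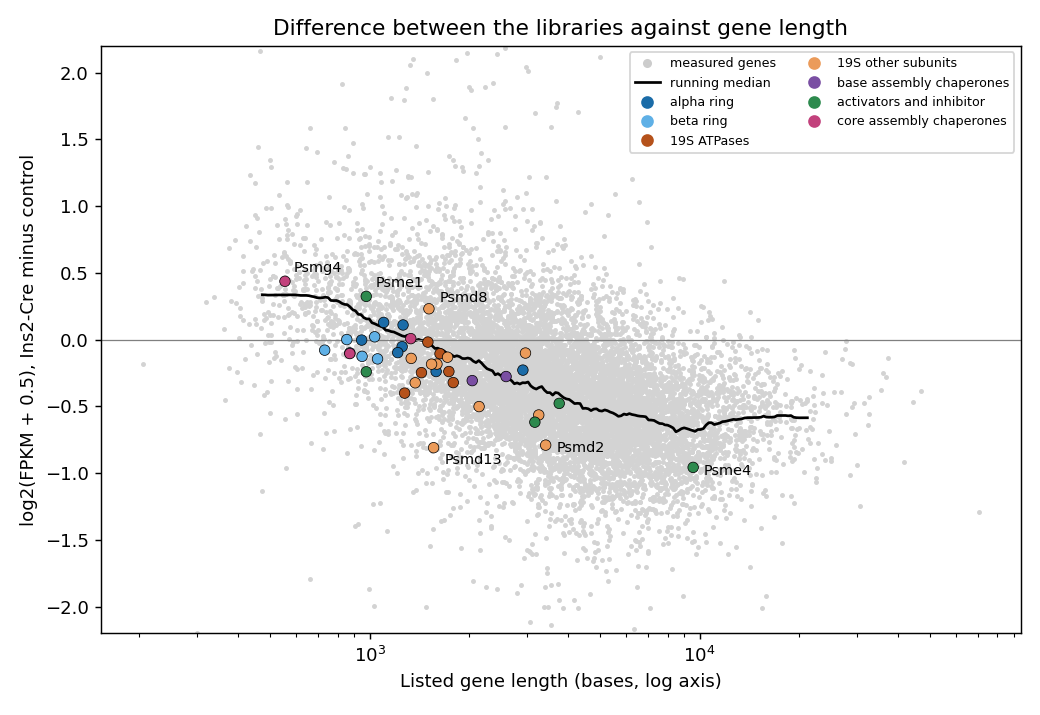
Difference in log2(FPKM + 0.5), Ins2-Cre minus control, against listed gene length (log axis), grey for measured genes (those beyond 2.2 are not drawn), black for the running median over genes of like length, colours for the members. Beta ring genes (731 to 1057 bases) all lie under the black line, Psmd13 stands furthest beneath it at -0.75 and Psmd8 lies 0.26 above it.

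Outside the subunit families, a list of proteasome and ubiquitin genes matched 31 of 35 symbols, 30 of them measured. Of the 30, 3 were past 2-fold lower and 0 past 2-fold higher (6.32% and 1.57% of all genes), with a list median of -0.36 beside the same value for all genes. Relative to the median of all genes 1 of the 30, Ddi2, was past 2-fold lower (1.36% of all genes) and 1 was past 2-fold higher (3.22% of all genes). Ddi2, which encodes the protease that cuts NRF1 into its active form, was furthest: 226 reads and 3.67 FPKM in the control and 24 reads and 0.449 FPKM in the Ins2-Cre library, a ratio of 0.122 (0.0769 to 0.187). Only 0.0938% of measured genes had a lower difference, and against genes of like length it was still at -1.73. Its Ins2-Cre level was under 1 FPKM, so it passed the filter on the mean only through its control level. Its rank among measured genes carries that selection. The Ddi2 span holds 2154 bases shared with Rsc1a1 on the same strand, which was listed at 0 reads in both libraries, and how reads in the shared stretch were assigned is not given. Nfe2l1 itself had 6376 and 2890 reads, or 69.9 and 36.5 FPKM, a ratio of 0.523 (upper bound 0.546), with 8.72% of genes lower. Its relative difference was -0.56. At 5241 bases it is long, and against genes of like length it was at -0.39, with 12.2% of genes lower. Ngly1, the glycosidase that edits NRF1, had 16.6 and 12.7 FPKM, near the median of all genes (relative difference -0.01), and Nfe2l2, encoding NRF2, 12.8 and 12.0 FPKM. The measured members whose windows hold TGACNNNGC had relative differences of 0.26 (Psmb5), 0.12 (Psmc6), 0.23 (Psmd12), 0.09 (Psmd9) and -0.59 (Psme4), beside 0.22 for the median of all measured members.

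Genes that deliver substrates differed among themselves. Uba6, a ubiquitin-activating enzyme gene, had 307 and 100 reads, or 3.46 and 1.30 FPKM (ratio 0.376, 0.297 to 0.472), and the main activating enzyme gene Uba1 63.2 and 39.8 FPKM (0.631, 0.603 to 0.659). Nploc4, a cofactor of the segregase VCP that pulls proteins out of the endoplasmic reticulum, had 1793 and 751 reads, or 21.9 and 10.6 FPKM (0.483, 0.443 to 0.526). Vcp had 119 and 77.2 FPKM (0.649, 0.624 to 0.675). Its other cofactor gene, Ufd1, had 4 and 0 reads and was not measured. Shuttle genes lay closer to all genes, with relative differences of 0.07 for Rad23b, 0.08 for Ubqln1, -0.13 for Ubqln2 and -0.03 for Ubqln4. Against genes of like length, Uba6 stood at -0.60, Nploc4 at -0.49, Vcp at -0.27 and Uba1 at -0.12. On that scale the shuttle genes stood at 0.14 (Rad23b), 0.11 (Ubqln1), -0.14 (Ubqln2) and 0.06 (Ubqln4), so Rad23b and Ubqln2 were further from 0 than Uba1.

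Among the genes that encode ubiquitin itself, Ubb, a polyubiquitin gene, had 19678 and 19627 reads, or 698 and 802 FPKM (ratio 1.15, 1.13 to 1.17). Rps27a, which encodes ubiquitin fused to a ribosomal protein, had 4661 and 5817 reads, or 326 and 469 FPKM (ratio 1.44, lower bound 1.38). Among proteins bound to the particle, the assembly factor gene Pomp had 943 and 946 reads, or 73.2 and 84.7 FPKM (1.16, 1.06 to 1.27), and the lid gene Sem1 99.3 and 114 FPKM (1.15, 1.05 to 1.27). Adrm1, a ubiquitin receptor of the base, had 49.5 and 34.5 FPKM (0.697, 0.642 to 0.756), while the deubiquitinase it recruits, Uchl5, had 286 and 309 reads (1.25, 1.06 to 1.47). Usp14, the other bound deubiquitinase, had 10.4 and 10.8 FPKM (1.04, 0.939 to 1.15). The ligase gene Ube3c (0.549) and Ecpas (0.604), which encodes an adaptor of the particle, were lower in ratio. So was Zfand2a (0.538), a stress-induced partner of the particle, while Akirin2, whose product carries proteasomes into the nucleus, was at 1.15. Against genes of like length, Pomp (-0.11) and Sem1 (-0.13) lay below 0, beside Ecpas (-0.10), Ube3c (-0.30), Adrm1 (-0.39) and Zfand2a (-0.48). Above 0 on that scale were Rps27a (0.25), Ubb (0.27), Akirin2 (0.31), Uchl5 (0.45) and Usp14 (0.57).

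**Figure D4:**
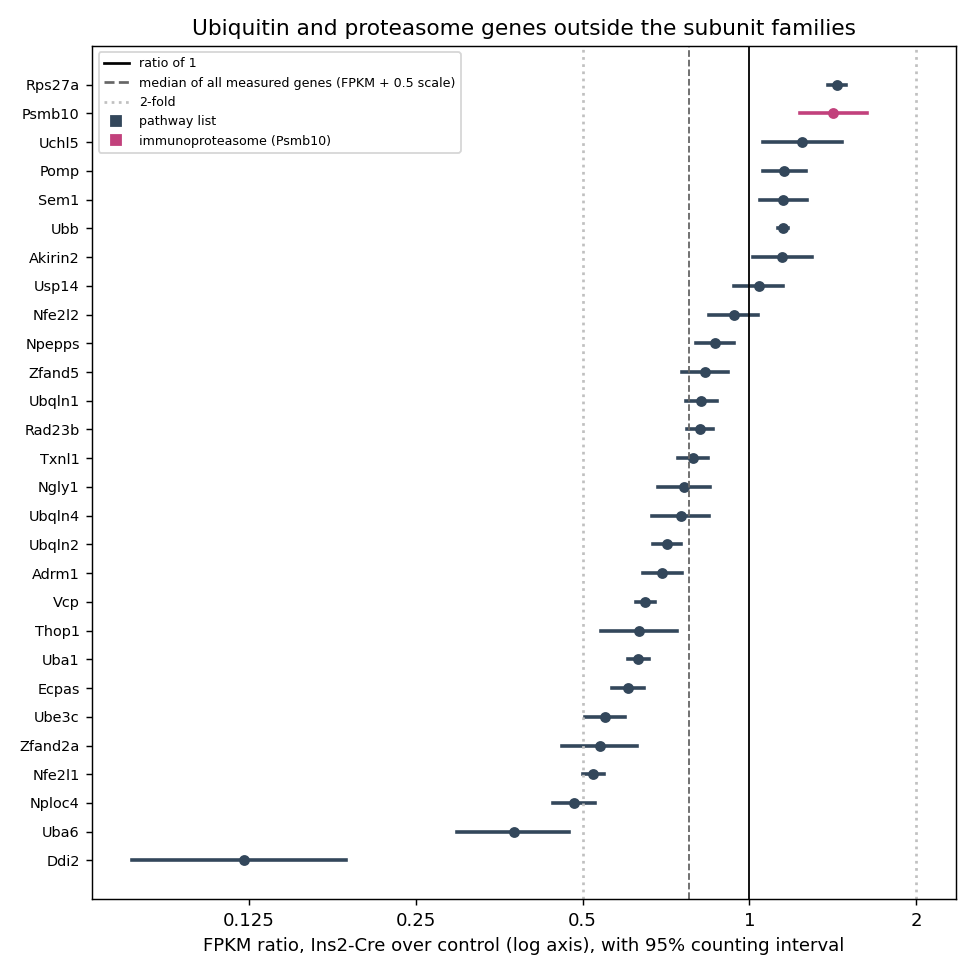
FPKM ratio of Ins2-Cre over control (log axis) with 95% counting intervals for most of the measured pathway genes and Psmb10, lines as in the plot of member ratios. Of the genes drawn, Rps27a (1.44) and Psmb10 (1.42) stand highest and Ddi2 (0.122) lowest, apart from the rest.

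Of the immunoproteasome genes left out of the rule, Psmb10 had 375 and 461 reads, or 17.0 and 24.0 FPKM, a ratio of 1.42 (1.23 to 1.63). Its level was 0.211 times that of Psmb7, the subunit it replaces, in the control and 0.330 times in the Ins2-Cre library. Psmb8 had 1 and 0 reads and Psmb9 6 and 5, both genes with further entries in the table. In the authors' deposited table, which compares the same libraries after scaling by size factors, 45 members were listed. The median log2 fold change there was 0.24 for the measured members and -0.02 for all measured genes. The p-values of that table rest on 1 library per group, so they hold no spread measured between samples. The lowest p-value there among measured members was 0.169. For Ddi2 the authors' deposited table gives a log2 fold change of -2.65 with a p-value of 0.00159 and an adjusted p-value of 0.235.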

How the data were processed

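RNA of islets was extracted with Trizol, per the labels' protocols. Bowtie2 2.4.2 and DESeq (no version named) and the builds mm10 and GRCm38 are named in the submitters' processing notes. No counting tool, strand setting or annotation release is stated there. The authors deposited whole read counts and FPKM per gene, per the file headers. Every deposited FPKM value was recomputed from counts, listed length and total (relative tolerance 1e-06). The authors' comparison table holds normalised counts as a signal (counts over size factors of 1.23 and 0.816), their fold ratio, its log2 value and p-values, per the file headers.

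With 1 library per group no spread between samples could be estimated, so no p-value was computed here. Sizes are log2(FPKM + 0.5) differences over genes of mean FPKM 1 or more, with a 2-fold rule, which understates low genes. Intervals (95%) cover counting error only and hold no spread between samples. They treat reads as independent molecules, which reads are not, so counting error may be larger than they show. A running median over genes of like length gave the length trend. Members, lists and the naming rule (subcomplex extremes, top levels, catalytic subunits, assembly factors, activators, and pathway genes past 2-fold) were chosen with earlier results of these data known, and further members named beside them after their values were seen. Marker lists for duct, endothelial, stromal, alpha, delta and PP cells had medians of 0.88, -0.46, -0.03, 0.08 and 1.06. The duct median is over 3 measured genes, and the summed level of that list was 310 FPKM in the control and 215 in the Ins2-Cre library. Python 3.11.15 and scipy 1.17.1 were used, and the calculation was tested on simulated data. Values of some genes of the pathway list are not reported here. Alternatives were other pseudocounts, scalings, filters, a 1.5-fold rule and removal of the length trend.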

Additional observations from a re-analysis of the deposited data

How the results depend on the processing

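No paired analysis was possible because each group had 1 library. The counts of members past 2-fold, 0 lower and 0 higher, stayed at 0 under every scaling, filter and pseudocount tried, except that 1 member, Psme4, was lower with a pseudocount of 0.1 FPKM, and the 1.5-fold rule gave 4 lower. The medians of all members, of the core and of the 19S particle (-0.14, -0.08 and -0.24) moved with the scaling. They were 0.22, 0.28 and 0.12 with the median of all genes set to 0, and 0.23, 0.30 and 0.14 with the authors' normalised counts. With the library total taken without the 20 top genes they were 0.10, 0.16 and 0.00061, and without the acinar list 0.0717, 0.14 and -0.0249. Removal of the length trend gave -0.18 for the core and -0.15 for the 19S particle. The median of all genes itself ran from -0.39 to 0 over these settings. Of the 34 measured genes that the naming rule took, 0 moved beyond their counting interval with either pseudocount, 33 did with the median set to 0 and 20 with the length trend removed. Of the pathway genes past 2-fold lower, Ddi2 stayed past it under each scaling and pseudocount and with the length trend removed (-2.78 to -1.69). Nploc4 (-1.02) kept the call only with a pseudocount of 0.1, and ran to -0.49 with the length trend removed. Uba6 (-1.14) kept it with a pseudocount of 0.1 and without the 20 top genes (-1.02), and ran to -0.60 with the length trend removed. Precision is limited by having no replicate, and for Psmg3, Psmg4 and Psmb5 also by reads.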
